A study of Mus musculus with 12 samples.

Results

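Genes of insulin signalling, from the insulin receptor to the AKT kinases, were followed in mouse 3T3-L1 adipocytes after knockdown of Zfp407, which encodes a zinc finger protein. The set held 35 genes: receptors, docking proteins, kinases with their subunits, phosphatases and adaptors. A gene was used where the deposited table had a row under its symbol alone, with a mean of at least 1 FPKM (fragments per kilobase of transcript, relative to all mapped fragments of a library) over the 12 libraries. This held for 31 of the 35 genes, which are 31 of the 14706 rows at or above that mean. Irs3, Grb10 and Prkcz had rows below it (means 0.262, 0.191 and 0.465 FPKM), and the lowest gene used was Pik3cb (mean 2.01 FPKM). Pik3r2 stands only in a row shared with Ifi30, and has no value of its own.

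RNA was sequenced from 3T3-L1 cells, a clonal mouse line of fibroblast-like preadipocytes that had been differentiated into fat-storing adipocytes. The cells were electroporated with 0.75 nmol of siRNA 2 days after differentiation, with a control siRNA in 6 libraries and with either of 2 siRNAs against Zfp407 in 3 libraries each. Each library is labelled as a sample of its own. If each had its own electroporation, the p-values below speak for repeated electroporations of a single cell line, with 2 siRNAs mixed in the knockdown arm. Which siRNA a knockdown column received is not marked, and the 6 knockdown libraries were therefore treated as 1 arm, numbered as their columns. Libraries are called controls 1 to 6 and knockdowns 1 to 6 where their values are listed.

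Insulin binds a receptor tyrosine kinase, which phosphorylates the docking proteins IRS1 and IRS2. These recruit PI3-kinase, a catalytic subunit joined to a regulatory subunit, whose lipid product brings PDPK1 and AKT to the membrane. In fat cells, AKT2 is the isoform best known for moving the glucose transporter GLUT4 to the cell surface. A parallel arm runs through SH2B2 (also called APS), CBL, CRK, the exchange factor RAPGEF1 and the small GTPase TC10, encoded by Rhoq. The GRB2, SHC1 and SOS1 adaptors lead instead to RAS and the MAP kinases.

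Knockdown was partial: Zfp407 ranged from 2.70 to 3.16 FPKM among the controls and from 1.604 to 2.13 FPKM among the knockdowns. The FPKM value of 1 read, taken from low rows, ran from 0.867 to 1.14 of that in control library 1. A deeper library has a lower value. The absolute depth is unknown, since the table holds no read counts. The mitochondrial chromosome took 32.8% of summed FPKM in knockdown library 6 and 19.4% to 26.3% in the others. All 13 adipocyte markers were measured, with a summed level of 20706 to 24969 FPKM among controls and 18863 to 23862 FPKM among knockdowns, and 6 of them fell and 1 rose, where 24.8% of all rows tested fell and 11.6% rose. Of 10 preadipocyte markers, 7 were tested and 0 passed by limma (0 also at an unadjusted p under 0.05, and 1 with centred libraries), with a summed level of 903 to 1061 FPKM among controls and 896 to 1167 FPKM among knockdowns. None of the markers with a row was at 0 in every library. The preadipocyte marker Dlk1 was at 785 FPKM or more throughout and made up most of the preadipocyte sum. Of the 7 tested, 5 had a positive log2 fold change and 2 a negative one. Gata2, the lowest of them, had means of 0.952 ± 0.0948 FPKM among controls and 1.14 ± 0.138 FPKM among knockdowns (SD, n = 6 each), with arms that overlapped. The part of these differences in the results below was not tested. In such bulk samples, fewer cells of a type and less RNA per cell cannot be told apart.

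Of the 31 genes, 11 were lower and 2 were higher in the knockdown libraries (limma on log2(FPKM + 1), Benjamini-Hochberg adjusted p under 0.05 over all rows). Over all rows tested, 36.4% were called, 24.8% lower and 11.6% higher. The lower genes were Irs1, Irs2, Pik3ca, Pik3r1, Pik3r3, Akt2, Rapgef1, Rhoq, Grb14, Shc1 and Ptpn11, and the higher genes Sh2b2 and Akt1. Most differences were small: 25 of the 31 log2 fold changes lay within 0.3 of zero. Their median was −0.11, against −0.05 over all rows, and the median size was 0.11 against 0.15. The arms did not overlap in 10 of the 31 genes, 9 lower and 1 higher, where 19.5% of all rows showed no overlap (13.9% lower, 5.51% higher). With each library centred on its median, 10 were lower and 3 higher, with 21.4% and 15.7% of all rows. Against a minimum fold of 1.2 (limma treat), 2 genes were called, Pik3r3 lower and Sh2b2 higher, with 5.82% of all rows called (3.69% lower, 2.13% higher). The authors' deposited table marks the same 2 genes as significant, and 1.83% of the rows tested here.

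A scale factor that sets one arm of a row apart from the other limits how small a change can be read. It was read from 404 low rows whose values in each arm were whole multiples of 1 value within 2%, leaving out rows with a log2 difference of 0.5 or more. In 77 of them (19.1%) the worth of 1 read differed between arms (a log2 difference above 0.01). The size of that difference had a 90th percentile of 0.144 over all 404 rows and a median of 0.147 among the 77. Log2 fold changes below about this size, including those called for Akt1, Akt2 and Pik3ca, cannot be told apart from it. Larger factors also occurred among the 77 rows, and rows with a difference of 0.5 or more were left out, so these sizes are no upper bound. A larger change, such as that of Shc1 (−0.19), Rapgef1 (−0.23) or Irs1 (−0.25), may hold a factor too. Which of the genes used carry such a factor was not tested. Of the genes used, 13 also share their locus with another row of the table, and how reads were assigned between such rows was not tested.

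**Figure D1:**
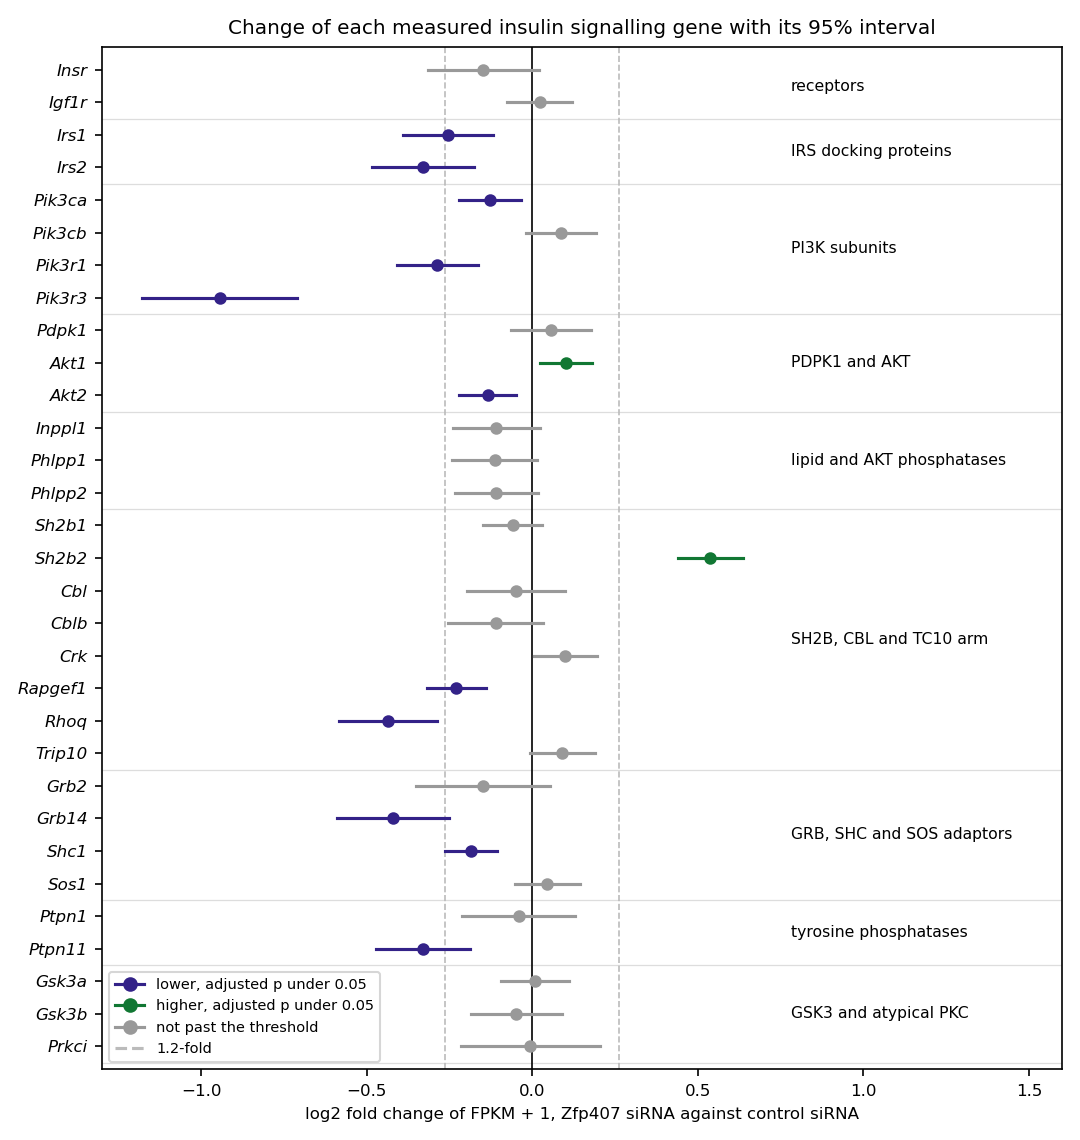
Log2 fold change of FPKM + 1 (knockdown against control, horizontal axis) of the 31 insulin signalling genes, ordered by role, with the 95% interval from limma and n = 6 libraries per arm. Pik3r3 (−0.95) and Sh2b2 (0.54) stand farthest from zero and, like Rhoq (−0.44), lie outside the dashed lines at a fold of 1.2 with their whole intervals. The intervals of the 18 genes not called span −0.35 to 0.20.

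Promoter sequences of 4 genes are shown: both IRS docking genes, the PI3-kinase subunit gene with the largest fall, and the adaptor gene that rose. The IRS genes are not among the largest changes. Their log2 fold changes were −0.25 (Irs1) and −0.33 (Irs2), against −0.44 for Rhoq and −0.42 for Grb14. Each is the 250 bases before the transcription start in RefSeq (GRCm38.p6), written from 5′ to 3′ on the gene's own strand. Capitals mark GC boxes (GGGCGG) and E-boxes (CACGTG) on either strand. The windows lie at chr1:82291440-82291689 (minus strand) for Irs1, chr8:11008930-11009179 (minus strand) for Irs2, chr4:116221358-116221607 (plus strand, the nearest of 3 listed starts to the start of its row) for Pik3r3 and chr5:136244941-136245190 (minus strand) for Sh2b2.
Irs1: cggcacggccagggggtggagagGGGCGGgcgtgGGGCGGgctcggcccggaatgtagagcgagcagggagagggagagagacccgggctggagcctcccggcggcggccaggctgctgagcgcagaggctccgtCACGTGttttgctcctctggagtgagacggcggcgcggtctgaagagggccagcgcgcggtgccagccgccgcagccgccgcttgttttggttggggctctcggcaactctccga
Irs2: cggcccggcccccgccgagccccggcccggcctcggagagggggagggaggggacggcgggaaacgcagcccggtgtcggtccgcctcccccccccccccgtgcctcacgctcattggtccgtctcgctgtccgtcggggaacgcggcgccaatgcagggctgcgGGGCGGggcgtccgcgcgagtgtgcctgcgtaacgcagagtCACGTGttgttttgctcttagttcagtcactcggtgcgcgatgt
Pik3r3: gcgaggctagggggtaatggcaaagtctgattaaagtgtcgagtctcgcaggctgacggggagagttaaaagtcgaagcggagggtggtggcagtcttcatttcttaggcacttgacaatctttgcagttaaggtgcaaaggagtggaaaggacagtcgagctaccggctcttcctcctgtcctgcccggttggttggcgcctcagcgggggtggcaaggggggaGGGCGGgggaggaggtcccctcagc
Sh2b2: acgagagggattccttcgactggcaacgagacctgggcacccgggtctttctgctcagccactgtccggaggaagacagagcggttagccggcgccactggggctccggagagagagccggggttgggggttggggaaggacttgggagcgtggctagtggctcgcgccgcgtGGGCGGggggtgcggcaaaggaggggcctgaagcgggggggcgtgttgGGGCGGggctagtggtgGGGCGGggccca
The Irs1 and Irs2 windows each hold 1 E-box, and no other of the 30 genes with a RefSeq promoter (all those used but Insr) holds one. Among all 32851 RefSeq promoters, in windows of 300 bases that reach 50 bases past the start, 7.15% hold this motif. The 2 of 30 genes are near that share. The match between the Irs1 and Irs2 windows extends to the 10 bases GTCACGTGTT, seen in 25 promoters (0.0761%). This longer run was examined after the sequences had been seen. The E-box ends 109 bases before the RefSeq start of Irs1 and 38 bases before that of Irs2. The row of Irs2 reaches to 11009053, past its E-box, and that of Sh2b2 to 136245838, past its whole window. By the span of these rows, those bases lie inside the gene. GC boxes were found in 24 of the 30 promoters and in 35.7% of all promoters, and the median GC content was 65.2% against 52.7%. The forkhead core TGTTTAC was found in 1 of the 30 promoters, that of Akt1, and in 3.65% of all. The 3 motifs were searched on both strands, and a match describes the letters only.

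The receptor genes did not pass the test. Insr (XLOC_033493, chromosome 8, 3150783 to 3279661 on GRCm38), which encodes the insulin receptor, stood at 18.9, 20.8, 17.5, 21.1, 18.6 and 17.3 FPKM in controls 1 to 6, against 15.7, 18.2, 14.8, 20.7, 17.1 and 16.3 FPKM in knockdowns 1 to 6. The arms overlapped, with knockdown library 4 inside the upper part of the control range and knockdown libraries 1, 3, 5 and 6 below every control library. The means were 19.03 ± 1.61 among controls and 17.1 ± 2.097 among knockdowns (SD, n = 6 each), and the log2 fold change was −0.15 (95% interval −0.32 to 0.02, limma adjusted p = 0.154). Without knockdown library 4 it was −0.20 and passed (adjusted p = 0.0317). Igf1r, the receptor for insulin-like growth factor 1, was present at a lower level per length, with a mean FPKM of 3.94 ± 0.159 among controls and 4.02 ± 0.296 among knockdowns (SD, n = 6 each; log2 fold change 0.02, 95% interval −0.08 to 0.12, limma adjusted p = 0.737).

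Both docking genes fell, and neither overlapped between the arms. Irs1 (XLOC_001296, chromosome 1, 82233101 to 82291416), the main docking protein of fat and muscle cells, stood at 18.8, 18.6, 16.9, 19.6, 18.9 and 17.7 FPKM in controls 1 to 6, against 14.8, 16.7, 13.5, 16.7, 16.6 and 13.6 FPKM in knockdowns 1 to 6. The highest knockdown libraries, 2, 4 and 5, came close to control library 3, the lowest of its arm. The mean FPKM was 18.4 ± 0.956 among controls and 15.3 ± 1.54 among knockdowns (SD, n = 6 each), and the level fell by 16.8% (log2 fold change −0.25, SE 0.06, limma adjusted p = 0.00681).

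Irs2 (XLOC_033534, chromosome 8, 10984627 to 11009053), which docks many of the same partners, stood at 14.9, 16.6, 14.3, 16.2, 15.8 and 14.4 FPKM in controls 1 to 6, against 12.03, 13.7, 10.8, 13.4, 12.5 and 10.1 FPKM in knockdowns 1 to 6. Knockdown libraries 3 and 6 were the lowest, as for Irs1, and all 6 lay below every control library. Its mean FPKM was 15.4 ± 0.967 among controls and 12.1 ± 1.43 among knockdowns (SD, n = 6 each), and the level fell by 21.5% (log2 fold change −0.33, SE 0.07, limma adjusted p = 0.00328). The authors' deposited table gives Irs2 a log2 fold change of −0.36 and a q-value of 0.196. Neither docking gene passed against a minimum fold of 1.2 (limma treat adjusted p = 1 for both). The ratio of Irs2 to Irs1 within a library was 0.835 ± 0.0341 among controls and 0.788 ± 0.0352 among knockdowns (SD, n = 6 each; exact permutation p = 0.0368, adjusted over 9 ratios 0.0662), and the 95% intervals of the 2 fold changes overlapped.

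The PI3-kinase genes differed among themselves. Pik3r3 (XLOC_023254, chromosome 4, 116221618 to 116303056), which encodes the regulatory subunit p55-gamma, had the largest change of the 31 genes. It stood at 11.1, 9.75, 10.01, 8.97, 10.8 and 10.6 FPKM in controls 1 to 6, against 4.14, 3.995, 3.73, 5.25, 6.41 and 5.78 FPKM in knockdowns 1 to 6. The arms stood well apart, with the highest knockdown library (5) below the lowest control library (4), and knockdown libraries 1, 2 and 3 were lower than 4, 5 and 6. The mean FPKM was 10.2 ± 0.778 among controls and 4.88 ± 1.09 among knockdowns (SD, n = 6 each), and the level fell by 52.1%. By limma the log2 fold change was −0.95 (SE 0.11, 95% interval −1.18 to −0.71, adjusted p = 3.94e-05; exact permutation p = 0.00216, two-sided, the smallest that the 924 divisions of the libraries can give). It ran from −1.02 to −0.89 with each library left out in turn, and 0.945% of all rows fell by as much or more. The authors' deposited table gives Pik3r3 a log2 fold change of −1.06 and a q-value of 0.00129.

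Pik3r1 (XLOC_009220, chromosome 13, 101680761 to 101768217), which encodes p85-alpha and its shorter forms, had the highest level per length of the PI3-kinase genes with a row of their own. It stood at 40.5, 38.3, 36.5, 41.4, 42.8 and 39.1 FPKM in controls 1 to 6, against 33.1, 34.8, 29.1, 33.7, 34.6 and 29.4 FPKM in knockdowns 1 to 6. The arms did not overlap, and knockdown libraries 3 and 6 were again the lowest. Its mean FPKM was 39.8 ± 2.25 among controls and 32.4 ± 2.58 among knockdowns (SD, n = 6 each; log2 fold change −0.29, SE 0.06, limma adjusted p = 0.001803). Pik3r3 stood at 25.7% ± 2.196 of the level of Pik3r1 among controls and at 15.1% ± 3.41 among knockdowns (SD, n = 6 each), a comparison added after the values were seen and given without a test.

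The catalytic subunit genes had smaller differences. Pik3ca (XLOC_020802, chromosome 3, 32397411 to 32468486), which encodes p110-alpha, the catalytic subunit best known for the insulin response, stood at 12.2, 12.6, 12.1, 12.4, 13.1 and 11.6 FPKM in controls 1 to 6, against 11.7, 12.2, 10.8, 11.4, 11.1 and 10.2 FPKM in knockdowns 1 to 6. The arms overlapped, with knockdown libraries 1 and 2 inside the control range. Its log2 fold change was −0.13 (limma SE 0.04, adjusted p = 0.0343), and the call held in 5 of the 12 fits that left out 1 library. It was lost without control library 1, 2, 4 or 5 or knockdown library 3, 5 or 6 (adjusted p between 0.0554 and 0.0757), and with each library centred on its median (adjusted p = 0.135). Pik3cb, which encodes p110-beta, was low, with a mean FPKM of 1.92 ± 0.147 among controls and 2.101 ± 0.107 among knockdowns (SD, n = 6 each; log2 fold change 0.09, 95% interval −0.02 to 0.19, limma adjusted p = 0.191). The ratio of Pik3ca to Pik3cb was 7.31, 6.16, 6.29, 6.44, 6.27 and 6.204 in controls 1 to 6, against 5.72, 5.95, 5.11, 4.92, 5.46 and 4.93 in knockdowns 1 to 6. The arms did not overlap, control library 1 being the highest and the other controls lying close together (mean 6.45 ± 0.433 among controls and 5.35 ± 0.431 among knockdowns, SD, n = 6 each; exact permutation p = 0.00216, adjusted over 9 ratios 0.00649). Pik3cb was the lowest gene used, and a scale factor between the arms in either row would enter this ratio.

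The AKT genes had small differences of opposite sign, neither larger than the scale factor between arms described above. Akt2 (XLOC_029899, chromosome 7, 27591552 to 27650807) was the most abundant of the 31 genes per length. It stood at 164, 159, 159.7, 164, 171 and 156 FPKM in controls 1 to 6, against 146, 148, 142, 155, 157 and 138 FPKM in knockdowns 1 to 6. Knockdown libraries 1, 2, 3, 4 and 6 lay below every control library, and knockdown library 5 within the control range. The mean FPKM was 162 ± 5.05 among controls and 148 ± 7.45 among knockdowns (SD, n = 6 each; log2 fold change −0.14, SE 0.04, limma adjusted p = 0.0187), and after quantile normalization the call was lost (adjusted p = 0.0615).

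Akt1 (XLOC_007672, chromosome 12, 112653821 to 112674908), the more widely used isoform, stood at 106, 102, 111, 115, 108 and 101 FPKM in controls 1 to 6, against 114, 116, 115, 114, 118 and 114 FPKM in knockdowns 1 to 6. The knockdown libraries lay close together, and control library 4 reached into their range. The mean FPKM was 107 ± 5.26 among controls and 115 ± 1.698 among knockdowns (SD, n = 6 each; log2 fold change 0.10, SE 0.04, limma adjusted p = 0.0438). The call of Akt1 held in only 2 of the 12 fits that left out 1 library, those without control library 3 or 4. In the other 10 the adjusted p lay between 0.0513 and 0.0839, and in a fit of protein-coding rows only it was 0.0582.

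The ratio of the AKT genes within a library does not depend on how the library was scaled. The ratio of Akt2 to Akt1 was 1.54, 1.56, 1.44, 1.42, 1.58 and 1.55 in controls 1 to 6, against 1.28, 1.28, 1.24, 1.36, 1.33 and 1.21 in knockdowns 1 to 6. Every knockdown library lay below every control library, with control library 4 and knockdown library 4 nearest to each other. The mean ratio was 1.51 ± 0.0658 among controls and 1.28 ± 0.0569 among knockdowns (SD, n = 6 each; log2 difference −0.24, exact permutation p = 0.00216, two-sided, adjusted over 9 ratios 0.00649). A scale factor between the arms in either row, as measured in low rows, would also enter this ratio. Pdpk1, the kinase that activates AKT, had a mean FPKM of 27.9 ± 2.501 among controls and 29.02 ± 1.16 among knockdowns (SD, n = 6 each; log2 fold change 0.06, 95% interval −0.06 to 0.18, limma adjusted p = 0.457).

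**Figure D2:**
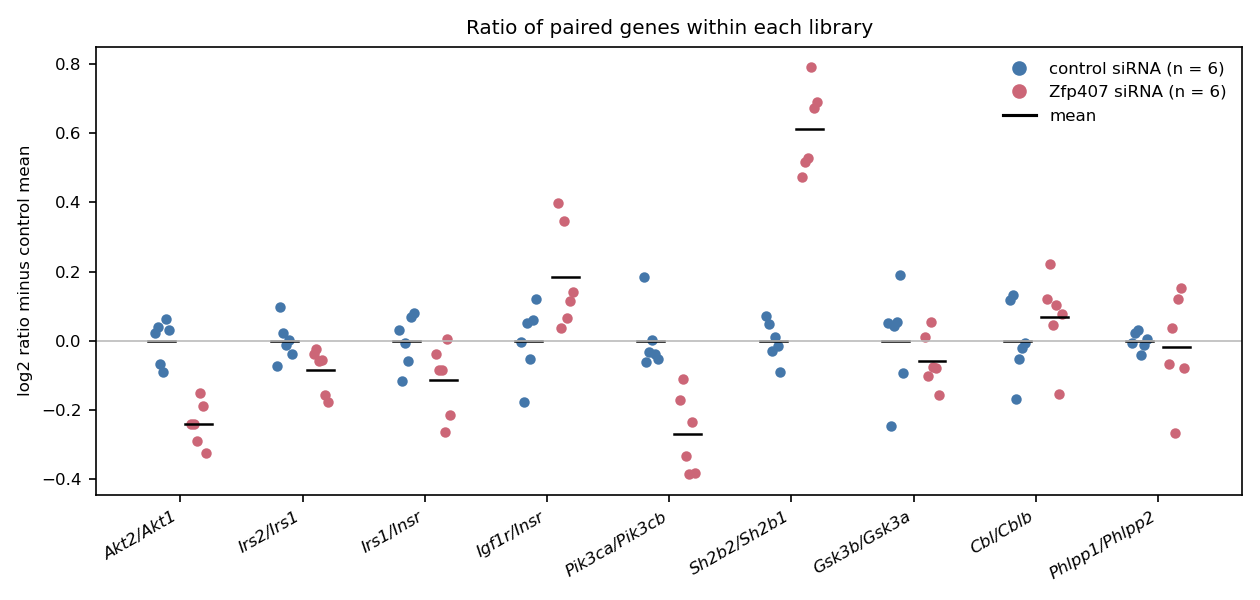
Log2 ratio of the FPKM of paired genes within each library (vertical axis, with the control mean of each ratio set to 0), for 6 control and 6 knockdown libraries; short lines are means. The arms are fully apart for Akt2/Akt1, Pik3ca/Pik3cb and Sh2b2/Sh2b1 and overlap for the other 6 ratios.

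The genes that end the lipid signal or remove phosphate from AKT did not pass. Inppl1 (XLOC_032083, chromosome 7, 101818313 to 101847432), the lipid phosphatase SHIP2, was the most abundant of them, at 34.3, 36.04, 35.2, 34.6, 33.2 and 31.9 FPKM in controls 1 to 6, against 28.9, 32.4, 27.8, 36.4, 33.7 and 31.3 FPKM in knockdowns 1 to 6. Knockdown library 4 was the highest of all 12, while knockdown libraries 1, 3 and 6 lay below every control library. The log2 fold change was −0.11 (95% interval −0.24 to 0.02, limma adjusted p = 0.179), and without knockdown library 4 it was −0.15 and passed (adjusted p = 0.0459). A second, smaller row of Inppl1 had means of 6.92 FPKM among controls and 4.48 FPKM among knockdowns, and is given below without a test. The AKT phosphatase genes Phlpp1 and Phlpp2 were both low, with control means of 2.83 and 3.57 FPKM, and had log2 fold changes of −0.11 and −0.11 (limma adjusted p = 0.154 and 0.165).

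In the SH2B and TC10 arm, the adaptor at its head rose while the exchange factor and the GTPase at its end fell. Sh2b2 (XLOC_027063, chromosome 5, 136218149 to 136245838), which encodes the adaptor that joins CBL to the insulin receptor, stood at 38.9, 41.8, 38.2, 39.1, 37.5 and 35.3 FPKM in controls 1 to 6, against 53.4, 57.5, 53.8, 61.2, 56.3 and 55.6 FPKM in knockdowns 1 to 6. The arms stood far apart, and every knockdown library was above the highest control library (2). The mean FPKM was 38.5 ± 2.12 among controls and 56.3 ± 2.85 among knockdowns (SD, n = 6 each), a level 46.3% higher. By limma the log2 fold change was 0.54 (SE 0.05, 95% interval 0.44 to 0.64, adjusted p = 3.16e-06; exact permutation p = 0.00216). It ran from 0.51 to 0.56 with each library left out in turn, and 4.63% of all rows rose by as much or more. The authors' deposited table gives Sh2b2 a log2 fold change of 0.53 and a q-value of 0.0308.

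Sh2b1, the paralogue that also binds the insulin receptor, did not pass (log2 fold change −0.06, 95% interval −0.15 to 0.03, limma adjusted p = 0.276). The ratio of Sh2b2 to Sh2b1 was 2.17, 2.14, 2.03, 2.08, 2.05 and 1.94 in controls 1 to 6, against 2.87, 2.96, 2.98, 3.57, 3.29 and 3.34 in knockdowns 1 to 6. The knockdown libraries 4, 5 and 6 had the highest ratios, and no knockdown library reached down to the controls (means 2.07 ± 0.0822 among controls and 3.17 ± 0.275 among knockdowns, SD, n = 6 each; exact permutation p = 0.00216, adjusted over 9 ratios 0.00649).

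Rhoq (XLOC_014205, chromosome 17, 86963082 to 87025406), the gene of the GTPase TC10, had the highest mean of this arm over the 12 libraries, although Sh2b2 and Crk stood higher among knockdowns. It stood at 62.5, 62.5, 68.6, 72.3, 64.5 and 67.2 FPKM in controls 1 to 6, against 46.2, 44.1, 45.4, 58.00, 52.9 and 46.4 FPKM in knockdowns 1 to 6. The arms did not overlap, and knockdown libraries 4 and 5 were nearest to the controls. The mean FPKM was 66.3 ± 3.83 among controls and 48.9 ± 5.43 among knockdowns (SD, n = 6 each; log2 fold change −0.44, SE 0.07, limma adjusted p = 3.77e-04), and against a minimum fold of 1.2 Rhoq did not pass (limma treat adjusted p = 0.1499). Its row overlaps that of Pigf.

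Rapgef1 (XLOC_017404, chromosome 2, 29619720 to 29740978), the exchange factor that loads TC10 with GTP, stood at 18.6, 17.9, 17.5, 18.5, 17.9 and 16.9 FPKM in controls 1 to 6, against 14.9, 15.3, 13.8, 16.4, 15.6 and 14.6 FPKM in knockdowns 1 to 6. The arms did not overlap, with knockdown library 4 just under the lowest control library (6). By limma the log2 fold change was −0.23 (SE 0.04, adjusted p = 9.85e-04). The other members of the arm did not pass. The ubiquitin ligase genes Cbl and Cblb had log2 fold changes of −0.05 and −0.11 (limma adjusted p = 0.608 and 0.212), and the authors' deposited table marks their rows, like that of Phlpp2, as failed tests. Crk, the adaptor that carries RAPGEF1, had 0.10 (95% interval 0.00 to 0.20, adjusted p = 0.09596), and passed with each library centred on its median (0.13, adjusted p = 0.0198). Trip10, a partner of TC10 also known as CIP4, had 0.09 (adjusted p = 0.132).

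Among the adaptors, Grb14 (XLOC_019335, chromosome 2, 64912468 to 65024987), which binds the activated receptor and dampens its kinase, stood at 6.51, 6.38, 7.58, 7.78, 6.38 and 7.75 FPKM in controls 1 to 6, against 5.93, 4.898, 4.54, 5.19, 5.47 and 4.15 FPKM in knockdowns 1 to 6. The highest knockdown library (1) lay just under the lowest controls (2 and 5), so the arms did not overlap. Its mean FPKM was 7.06 ± 0.707 among controls and 5.03 ± 0.641 among knockdowns (SD, n = 6 each; log2 fold change −0.42, SE 0.08, limma adjusted p = 0.00131; treat adjusted p = 0.315). Shc1 (XLOC_021054, chromosome 3, 89415472 to 89430177), which links the receptor to GRB2, stood at 73.9, 70.9, 74.9, 75.1, 74.9 and 77.8 FPKM in controls 1 to 6, against 65.6, 65.2, 63.8, 67.8, 69.1 and 61.5 FPKM in knockdowns 1 to 6. The arms lay close to each other without overlap (log2 fold change −0.19, SE 0.04, limma adjusted p = 0.00167).

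Grb2 (XLOC_006291, chromosome 11, 115644045 to 115708597), the adaptor that carries SOS1, was the most abundant of this group and did not pass. It stood at 80.03, 55.1, 78.9, 77.3, 78.7 and 79.3 FPKM in controls 1 to 6, against 58.8, 63.7, 73.6, 70.7, 72.1 and 63.6 FPKM in knockdowns 1 to 6. Control library 2 was the lowest of all 12, while the other control libraries were all above every knockdown library. The log2 fold change was −0.15 (95% interval −0.35 to 0.05, limma adjusted p = 0.235), and without control library 2 it was −0.23 and passed (adjusted p = 0.00829). The row of Grb2 shares its locus with Gm11702, to which the table gives a mean of 919 FPKM. Sos1, the exchange factor for RAS, had a log2 fold change of 0.05 (limma adjusted p = 0.462).

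The tyrosine phosphatase genes differed. Ptpn11 (XLOC_026940, chromosome 5, 121130531 to 121191401), whose product SHP2 is recruited to IRS proteins and GAB1, stood at 69.8, 67.5, 71.04, 76.1, 73.4 and 71.97 FPKM in controls 1 to 6, against 50.9, 55.7, 51.9, 64.2, 65.3 and 53.7 FPKM in knockdowns 1 to 6. The arms did not overlap, and knockdown libraries 4 and 5 were nearest to the controls. Its mean FPKM was 71.6 ± 2.97 among controls and 56.97 ± 6.28 among knockdowns (SD, n = 6 each; log2 fold change −0.33, SE 0.07, limma adjusted p = 0.00187). Ptpn1, which encodes PTP1B, the phosphatase that switches off the insulin receptor, did not pass (log2 fold change −0.04, 95% interval −0.21 to 0.13, adjusted p = 0.713).

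None of the 3 kinase genes that act beside or after AKT was called by limma. Gsk3b (XLOC_012582, chromosome 16, 38085030 to 38246084), a glycogen synthase kinase inhibited by AKT, stood at 37.98, 33.7, 38.2, 38.4, 40.9 and 33.2 FPKM in controls 1 to 6, against 36.9, 36.5, 36.00, 38.3, 36.6 and 30.5 FPKM in knockdowns 1 to 6. The arms overlapped, and knockdown library 6 was the lowest of all 12 (log2 fold change −0.05, 95% interval −0.19 to 0.09, limma adjusted p = 0.583). Gsk3a, its paralogue, and Prkci, an atypical protein kinase C linked to GLUT4 movement, had log2 fold changes of 0.01 and −0.01 (limma adjusted p = 0.913 and 0.967; unadjusted exact permutation p = 0.857, 0.483 and 0.968 for Gsk3a, Gsk3b and Prkci).

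**Figure D3:**
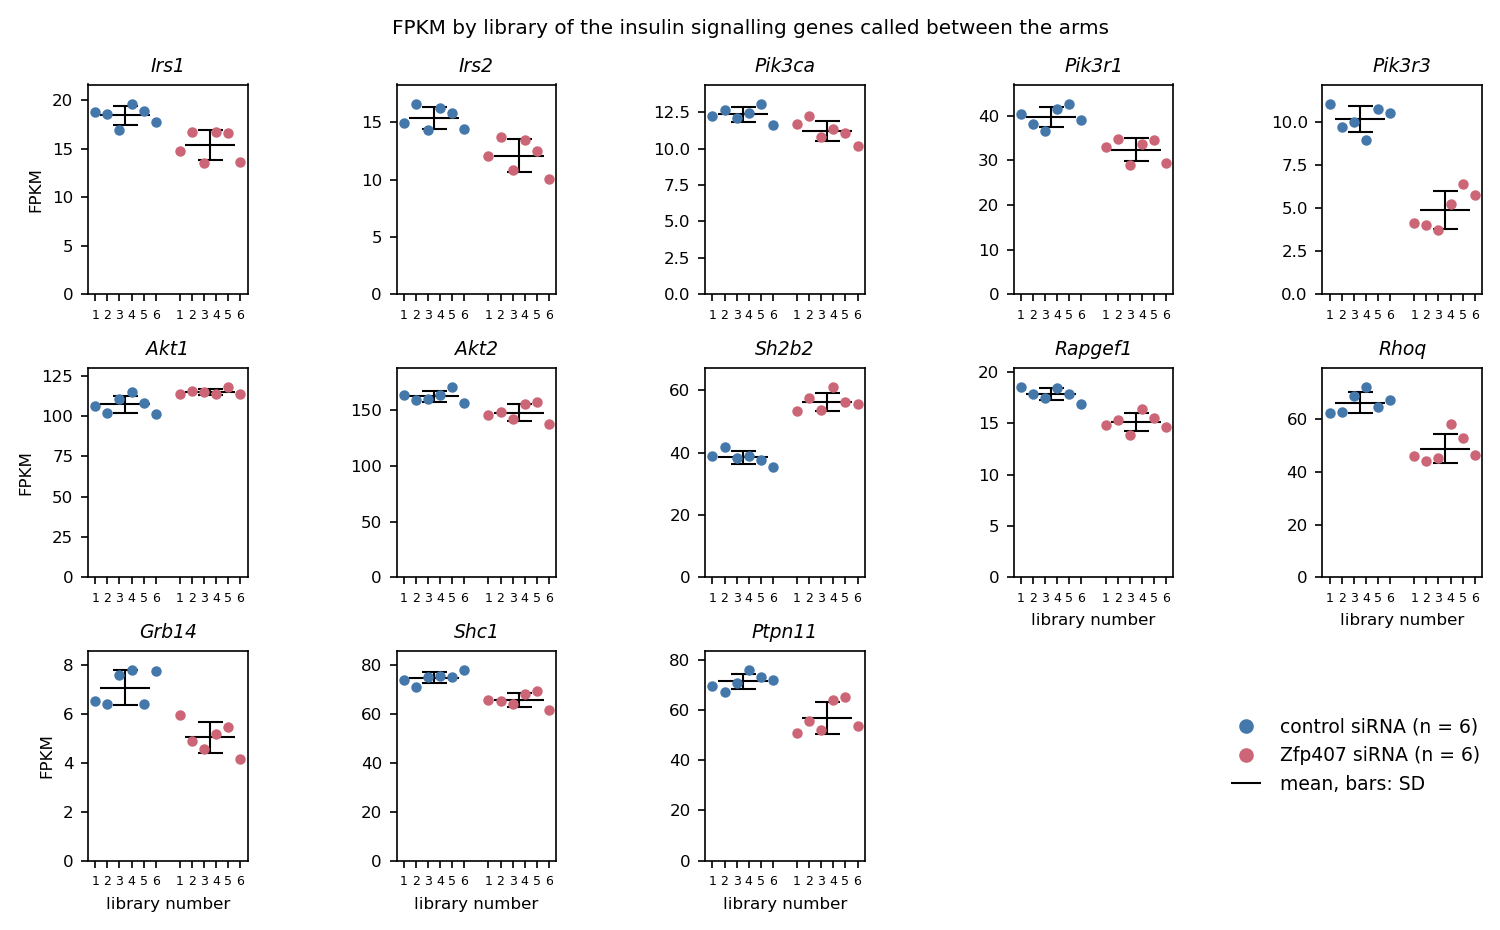
FPKM (vertical axes from 0) in control libraries 1 to 6 and knockdown libraries 1 to 6 for the 13 genes called between the arms; points are libraries, long lines means and bars SD. The arms are apart in 10 panels and overlap in those of Pik3ca, Akt1 and Akt2.

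The other 6 ratios did not pass. Igf1r to Insr had a log2 difference of 0.18 and Irs1 to Insr of −0.11 (exact permutation p adjusted over 9 ratios 0.0662 and 0.0942). For Gsk3b to Gsk3a, Cbl to Cblb and Phlpp1 to Phlpp2 the unadjusted exact permutation p was 0.407, 0.331 and 0.829. Of 12 ratios planned, 3 could not be made, since Pik3r2, Prkcz or Grb10 had no usable value.

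The knockdown libraries did not move to the same extent. The 11 lower genes had a median log2 difference from the control mean of −0.26, −0.19, −0.44, −0.15, −0.19 and −0.41 in knockdown libraries 1 to 6. Over all 31 genes this median was −0.07, −0.06, −0.18, 0.03, −0.05 and −0.22, and over all rows −0.06, −0.07, −0.07, −0.01, −0.02 and −0.08. Libraries 3 and 6 were thus the lowest and library 4 the highest for these genes. Library 6 held the lowest knockdown value in 12 of the 31 genes and library 3 in 9, and library 4 held the highest in 15. Library 6 was also the library with the highest mitochondrial share. Without it, Irs2 had a log2 fold change of −0.28, Pik3r3 of −0.99, Rhoq of −0.42 and Sh2b2 of 0.54, and of the 13 calls those of Pik3ca and Akt1 were lost.

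The rest of the pathway was read from a separate list of 55 genes, of which 43 had the required level. Of these, 12 fell and 5 rose, with a median log2 fold change of −0.04. Over all rows tested 24.8% fell and 11.6% rose, with a median of −0.05, so the counts of the list are near this background. With each library centred on its median, 11 were lower and 9 higher (55.0% of the calls lower, against 70.6%). Over all rows the same centring took the lower share of the calls from 68.1% to 57.7%. None passed against a minimum fold of 1.2 (limma treat), where 17 had passed without it. Flot1, a membrane raft protein, was among the genes with the smallest adjusted p and fell from 66.5 ± 6.43 to 49.2 ± 3.18 FPKM (means ± SD, n = 6 each), with a log2 fold change of −0.42 (limma adjusted p = 4.17e-04).

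The scaffold subunit gene of protein phosphatase 2A, Ppp2r1a, rose from 107 ± 3.06 to 130.0 ± 6.698 FPKM (log2 fold change 0.27, limma adjusted p = 2.17e-04). Rictor, a subunit of the complex that phosphorylates AKT, rose from 6.01 ± 0.1599 to 7.14 ± 0.269 FPKM (0.22, limma adjusted p = 3.29e-04; SD, n = 6 each, for both). Mapkap1, which encodes another subunit of that complex and was chosen after its values were seen, fell from 50.1 ± 3.21 to 41.2 ± 4.07 FPKM (−0.28, limma adjusted p = 0.00592).

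Of the genes nearest to AKT, Tbc1d4, the AKT substrate AS160 that restrains GLUT4 vesicles, fell from 12.5 ± 1.505 to 8.52 ± 1.69 FPKM (SD, n = 6 each, here and for the genes after it; log2 fold change −0.52, SE 0.12, limma adjusted p = 0.00454), with arms that overlapped. Pde3b, the phosphodiesterase through which insulin restrains lipolysis, fell from 27.1 ± 1.91 to 20.2 ± 2.34 FPKM (−0.41, adjusted p = 8.77e-04). Foxo1, a transcription factor held out of the nucleus by AKT, fell from 11.04 ± 0.579 to 9.22 ± 0.933 FPKM (−0.24, adjusted p = 0.00799). Mtor, the kinase of the complexes that phosphorylate AKT and act after it, had a mean FPKM of 10.03 ± 0.868 among controls and 11.4 ± 1.28 among knockdowns (SD, n = 6 each) and did not pass (0.16, adjusted p = 0.103). It passed without control library 3 or knockdown library 2 (adjusted p = 0.0433 and 0.0421) and with centred libraries (0.0400).

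**Figure D4:**
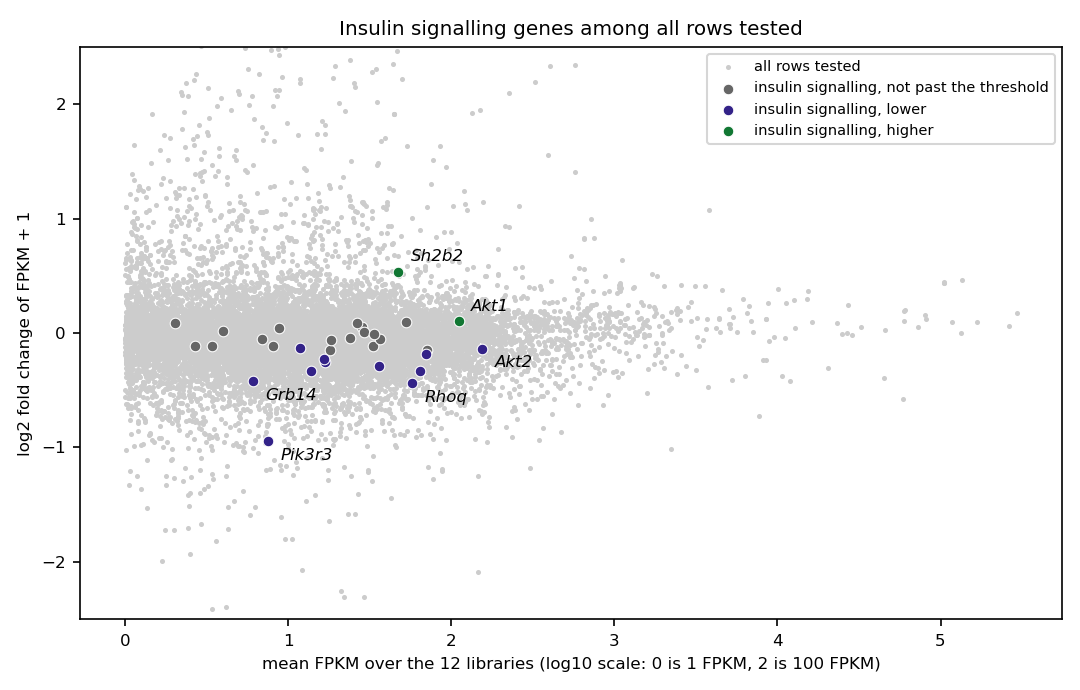
Log2 fold change of FPKM + 1 against the mean FPKM over 12 libraries (log10 scale) for the rows tested (small grey points) and the 31 insulin signalling genes (large points); 133 rows lie outside the vertical range of −2.5 to 2.5. Pik3r3 (−0.95) is the lowest and Sh2b2 (0.54) the highest of the large points, and 25 of the 31 lie within 0.3 of zero.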

How the data were processed

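RNA of 12 libraries was sequenced by the submitters, 6 per arm. The authors deposited 1 table with an FPKM value per gene row and library, and, per the file headers, their own log2 fold change, p-value and q-value for knockdown against control. Cufflinks 2.0.2 and TopHat2 2.0.5 are named, with SAMtools 0.1.18.0 and Bowtie2 2.0.0.7, per the submitters' processing notes. Not given in the sources used here are genome build, annotation and strandedness, so antisense or overlapping genes may share reads. Of 18456 protein-coding rows, 99.6% overlapped the same symbol in GENCODE M21 (GRCm38). Coordinates are the table's, counted from 1.

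The test was limma (version 3.58.1, R 4.3.3), with lmFit and eBayes with trend, on log2(FPKM + 1) over 14706 rows with a mean of at least 1 FPKM, two-sided, with Benjamini-Hochberg adjustment over all rows. The fit was tested on simulated data with independent noise in each value. These held no shift shared by a library and no scale factor between arms, so the simulation does not bear on either. Where several rows carried a symbol, the one with the highest mean was used. Ratios were tested by exact permutation of 924 divisions. Alternatives were another pseudocount, filter, scaling, minimum fold, replicate block and row set, and each library left out. Promoters came from RefSeq (GRCm38.p6).

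Printed in every library were the genes called and the most abundant gene of each role group; the other pathway genes named were taken from the 5 with the smallest adjusted p and from those nearest to the members (Foxo1, Tbc1d4, Pde3b and Mtor), and some genes under this rule are not reported here. Members and lists were chosen with earlier results of these data known. Contrasts for each siRNA were not made, because the columns do not mark it.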

Additional observations from a re-analysis of the deposited data

Results flagged for a closer look

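In 80 groups of 6 values (the genes used and the ratios, each in both arms, with a gap test at the 95% level), 5 held a library that stood apart from the other 5, where chance gives about 1 in 20. Grb2 in control library 2 was at 55.1 FPKM, with the other controls between 77.3 and 80.0 FPKM. Gsk3a in the same library was at 31.2 FPKM, with the others between 27.7 and 29.0 FPKM. Pik3cb in knockdown library 4 was at 2.31 FPKM, with the others between 2.03 and 2.12 FPKM. Gsk3b in knockdown library 6 was at 30.5 FPKM, with the others between 36.0 and 38.3 FPKM. The ratio of Pik3ca to Pik3cb in control library 1 was 7.31, with the others between 6.16 and 6.44.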

How the results depend on the processing

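For the 31 genes, 559 of 616 alternative values kept their direction and their side of the threshold, 34 lost and 7 gained a call, and 16 reversed, all of the reversals in genes without a call. Against a minimum fold of 1.2, 2 genes were called (1 lower, 1 higher), and 0 of the other pathway genes (0 lower, 0 higher). The higher genes numbered 1 with protein-coding rows only and 1 to 2 with 1 library left out, which turns on Akt1. Other pathway genes called higher numbered 9 with centred libraries and 9 after quantile normalization. With 1 library left out, 3 to 5 of the 9 ratios passed, 5 of them without knockdown library 2, when Irs2/Irs1 and Igf1r/Insr passed as well. Reversed log2 fold changes after quantile normalization were 0.0018 for Ptpn1, 0.0063 for Gsk3b and 0.0446 for Prkci, and with centred libraries 0.0276 for Prkci. With 1 library left out, values ran from −0.0042 to 0.0388 for Igf1r, −0.0709 to 0.0121 for Ptpn1, −0.0147 to 0.0320 for Gsk3a, −0.0798 to 0.0392 for Prkci and −0.0507 to 0.0327 for the log2 ratio Phlpp1/Phlpp2. The cause of these changes was not tested. It is not known whether the column numbers pair the arms. Correlations of deviations between same-numbered libraries were weak (−0.05 to 0.15), yet 3 of 6 libraries were best matched by their own number. With a replicate block by that number, 14 genes were called by limma, 12 lower and 2 higher: Insr (adjusted p = 0.0233) and Crk (0.0499) passed and Akt1 (0.0587) did not. Over all 14706 rows, 5700 were called with the block and 5360 without it. Depth is unknown, so no counting error can be given for the low genes.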

Other observations

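The table held a second, smaller row for Inppl1 at the same locus, which the rule of the highest mean left out. It stood at 6.92 ± 0.918 FPKM among controls and 4.48 ± 0.686 FPKM among knockdowns (SD, n = 6 each), with values of 6.69, 7.21, 6.96, 7.66, 5.25 and 7.77 FPKM in controls 1 to 6, against 3.69, 4.21, 3.94, 4.45, 5.35 and 5.26 FPKM in knockdowns 1 to 6. How the authors' estimation divided reads between the rows was not tested.

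Akt1s1, which encodes an AKT substrate in the mTOR complex and was noticed after its values had been seen, varied more between libraries than any insulin signalling gene above. It stood at 95.6, 129, 49.98, 43.6, 44.7 and 40.6 FPKM in controls 1 to 6, against 262, 79.2, 50.8, 46.9, 319.9 and 43.95 FPKM in knockdowns 1 to 6 (log2 fold change 0.63, 95% interval −0.54 to 1.81, limma adjusted p = 0.391). The high values fell in libraries 1 and 2 of the control arm and 1, 2 and 5 of the knockdown arm.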
